A study of Homo sapiens with 12 samples.

Results

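Small ribosomal subunit protein genes were followed through an m6A-seq experiment on METTL16 knockout in NOMO-1 cells. The members are all genes whose name is RPS followed by digits, with an optional A, X or L ending, together with RPSA and FAU; RPS6K kinases and pseudogene names were left out. By this rule 30 genes of the 16417 with any window in the authors' deposited tables were members. RefSeq lists 33 protein-coding symbols that fit the rule, and RPS9, RPS18 and RPS26 had no window in any table. Of the members, 22 had a window in all 4 tables, 3 in 3 tables, 4 in 2 tables and RPS13 in 1 table, with 213 windows in total.

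NOMO-1 is an established human acute myeloid leukaemia cell line with monocytic features. Cells received lentivirus with 1 of 3 guides: sgMETTL16-1 or sgMETTL16-2, both against METTL16, or the control guide sgNS, and every group was kept in puromycin at 2 µg/ml for 1 to 2 weeks. The labels call both sgMETTL16 groups knockout; they describe infected cells selected with the drug and name no clone. Each guide gave 2 input libraries of poly(A) RNA and 2 libraries of RNA pulled down with an antibody against m6A (IP), 12 libraries in all. Each of the 4 deposited tables sets 1 knockout guide against sgNS for replicate 1 or replicate 2. A table lists windows of transcripts with the fold enrichment of IP over input, and the log2 fold change between knockout and sgNS with its false discovery rate (FDR). The tables hold no value per library, so no SD or replicate error can be given, the depth is unknown, and p-values rest on the authors' own model. The labels do not say whether the replicates were separate cultures.

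The 40S subunit binds the mRNA, scans for the start codon and decodes each codon against tRNA. Messenger RNAs of its proteins are among the most abundant in a growing cell, and most begin with a terminal oligopyrimidine (TOP) tract, a C at the first base followed by a run of pyrimidines, through which mTOR and LARP1 control their translation. m6A is the most frequent internal modification of mRNA and is placed mainly by METTL3 with METTL14. METTL16 is a separate methyltransferase, best known for the U6 spliceosomal RNA and for hairpins of the MAT2A mRNA.

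The starts of 10 members are shown because the TOP tract is the best known shared regulatory sequence of this family, and because it lies away from most of the m6A signal described next. Each is 30 bases of genomic sequence from RefSeq (GRCh38.p14), read 5′ to 3′ on the gene's strand, with 10 bases before and 20 bases from the first transcribed base; capitals mark the unbroken pyrimidine run that holds the first base, and no capitals mean that the first base is not a pyrimidine.

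RPS23: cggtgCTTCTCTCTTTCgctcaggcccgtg
RPS6: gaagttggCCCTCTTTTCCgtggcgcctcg
RPS24: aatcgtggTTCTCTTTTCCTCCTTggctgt
FAU: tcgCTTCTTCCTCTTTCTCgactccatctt
RPS3: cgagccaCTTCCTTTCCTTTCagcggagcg
RPS16: ccctagCTTTCCTTTTCCggttgcggcgcc
RPS21: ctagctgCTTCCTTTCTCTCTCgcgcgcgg
RPS14: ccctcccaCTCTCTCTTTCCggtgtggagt
RPS4X: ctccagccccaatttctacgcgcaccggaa
RPS27L: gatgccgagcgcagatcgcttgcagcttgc

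On the plus strand, RPS24 lies at chr10:78033853-78033882, RPS3 at chr11:75399508-75399537 and RPS21 at chr20:62387093-62387122. On the minus strand, RPS23 lies at chr5:82278335-82278364, RPS6 at chr9:19380217-19380246, FAU at chr11:65122115-65122144, RPS16 at chr19:39435930-39435959, RPS14 at chr5:150449720-150449749, RPS4X at chrX:72277229-72277258 and RPS27L at chr15:63157458-63157487. RPS27L, a paralog of the subunit protein eS27, and RPS4X do not begin with a pyrimidine at the annotated base. A start was counted as TOP-like where the first transcribed base is a C and the next 4 bases are pyrimidines. By this count 19 of the 29 starts listed for 26 genes whose names fit the rule qualified, against 28 of 51 starts of large subunit genes and 4.07% of the 35116 starts of all genes. These 26 include RPS9, RPS18 and RPS26, which had no window. The letters GGACT, a common m6A context, searched on the transcribed strand, were in the first 50 transcribed bases of 0 of the 29 starts and of 4.9% of all starts. The METTL16 hairpin letters TACAGAGAA, searched on both strands over 300 bases around the start, were in 0 of the 29 and in 0.316% of all. A match or its absence describes these letters in this stretch only.

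Windows of small subunit genes passed the threshold for enrichment in IP more often than windows of all genes, but at lower folds. The reads behind each window are unknown, and their part in these shares was not tested. A window was taken as enriched where the deposited FDR of IP over input was under 0.05. In the authors' deposited tables, 24 of 56 member windows were enriched for sgMETTL16-1 replicate 1, 18 of 44 for sgMETTL16-1 replicate 2, 26 of 62 for sgMETTL16-2 replicate 1 and 21 of 51 for sgMETTL16-2 replicate 2. These shares lay between 40.9% and 42.9%, against 8.1%, 11.9%, 10.2% and 12.3% of all windows of the same deposited tables. The median fold enrichment of the enriched member windows was 1.37, 1.28, 1.35 and 1.29 in that order in the authors' deposited tables, below the 1.78, 1.92, 1.88 and 1.89 of all enriched windows. A fold of 2 was reached by 4, 2, 5 and 4 of the enriched member windows, 16.7%, 11.1%, 19.2% and 19.0% of them, against 32.3%, 44.8%, 41.1% and 42.5% of all enriched windows in the authors' deposited tables. Among large subunit genes, 41.6%, 34.0%, 41.7% and 34.4% of windows were enriched, at a median fold of 1.34, 1.45, 1.41 and 1.41 in the authors' deposited tables. At gene level, 14 members were enriched in all 4 deposited tables, 24 in at least 1, and 6 in none; those 6 were RPS7, RPS10, RPS13, RPS27, RPS3A and RPSA, the laminin receptor protein that also sits in the subunit.

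**Figure D1:**
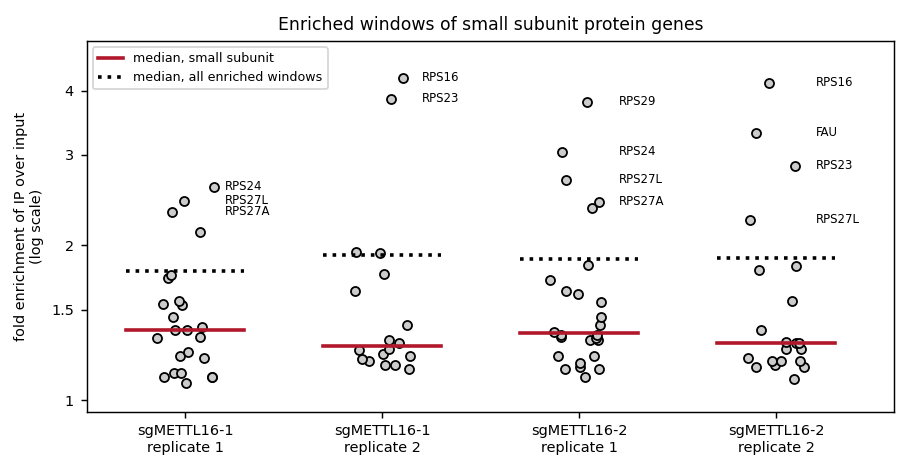
Fold enrichment of IP over input (log scale) of every enriched small subunit window in the 4 deposited tables; grey points are windows, the solid line their median and the dotted line the median of all enriched windows. The solid line is below the dotted line in each table, at 1.37 against 1.78 in the first, and the windows of RPS16 at 4.23 and 4.13 are the highest.

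RPS16, the protein uS9 of the head whose tail reaches the P-site tRNA, had the highest mean fold of the members where only enriched windows are counted, 2.93 over the authors' deposited tables. Unenriched windows of other members, such as RPS27 at 6.68 and RPS29 at 7.42, had higher folds without passing the FDR in the authors' deposited tables. Its window ran from the annotated 3′ end into the gene at chr19:39433137-39433744, with folds of 1.73 and 1.63, in both replicate 1 tables of the authors' deposited set. The shorter window at chr19:39433137-39433532 had folds of 4.23 and 4.13 in the replicate 2 tables of the same deposited set. Next came RPS29 with a mean of 2.52 over 3 tables, RPS23 with 2.46, RPS27L with 2.45 over 3 tables and RPS24 with 2.19, enriched windows alone, in the authors' deposited tables. The RPS29 signal is uncertain: every enriched window under that name overlapped RPL32P29, a pseudogene of another ribosomal protein annotated inside the RPS29 gene. Enriched windows sat away from the TOP tract, with 2, 0, 3 and 3 of them within 200 bases of the annotated 5′ end and 9, 5, 10 and 6 within 200 bases of the 3′ end, counted over the genome with introns, in the authors' deposited tables.

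Member calls were mostly lower in the replicate 1 tables and, by number, more often higher in the replicate 2 tables, with either guide. A window was called lower or higher where the deposited FDR of the difference was under 0.05, by the sign of the deposited log2 fold change, and a negative sign is read here as less m6A in the knockout, a direction that the headers do not state. For sgMETTL16-1 replicate 1, 9 windows were called lower, where 0.281% of all windows were, and 1 higher, where 0.0743% were, in the authors' deposited table. In replicate 2 of that guide, 4 were called lower, against 0.167% of all windows, and 5 higher, against 0.583%, in the authors' deposited table. The sgMETTL16-2 replicate 1 table of the authors' deposited set called 11 lower, against 0.965%, and 1 higher, against 0.875%. Its replicate 2 counterpart in the authors' deposited set called 2 lower, against 0.149%, and 6 higher, against 0.586%.

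Member shares called lower were thus 16.1%, 9.09%, 17.7% and 3.92%, and shares called higher 1.79%, 11.4%, 1.61% and 11.8%, in the authors' deposited tables. Among enriched windows alone, 37.5%, 22.2%, 38.5% and 9.52% of member windows were called lower, against 2.79%, 0.766%, 4.38% and 0.676% of all enriched windows in the authors' deposited tables. Called higher were 4.17%, 27.8%, 0% and 28.6% of enriched member windows, against 0.809%, 4.64%, 7.38% and 4.54% of all enriched windows in the authors' deposited tables. The large subunit genes, 48 with a window, had 19 lower and 3 higher, 5 and 7, 19 and 2, and 4 and 9 called windows in the authors' deposited tables. Of their 113, 94, 115 and 96 windows, 16.8%, 5.32%, 16.5% and 4.17% were called lower and 2.65%, 7.45%, 1.74% and 9.38% higher, in the authors' deposited tables. The replicate 1 tables thus held mostly lower calls, and the replicate 2 tables more higher ones, for the large subunit as well. The sizes were small: the median absolute log2 fold change of called member windows was 0.20, 0.33, 0.26 and 0.33, against 0.50, 0.45, 0.73 and 0.46 over all called windows of the authors' deposited tables. The reads behind each window are unknown, and their part in these calls was not tested.

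**Figure D2:**
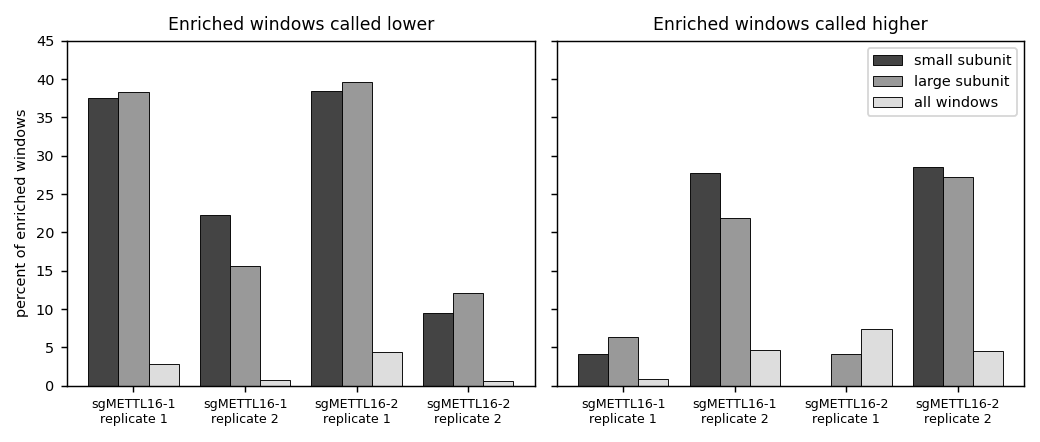
Percent of enriched windows called lower (left) and higher (right) in each deposited table, for small subunit genes, large subunit genes and all genes. Both subunits' bars for lower calls are tall in replicate 1, 37.5% and 38.5% for the small subunit, and their bars for higher calls are tall in replicate 2, 27.8% and 28.6%.

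The median log2 fold change of all member windows was -0.12 and 0.017 for sgMETTL16-1 replicates 1 and 2, and -0.11 and 0.13 for sgMETTL16-2 replicates 1 and 2, while the whole set of windows had a median of 0 in every one of the authors' deposited tables. Enriched windows as a whole were shifted, with a median of -0.038, 0.13, 0.13 and 0.14 in that order in the authors' deposited tables. Enriched member windows alone had medians of -0.124, 0.0338, -0.108 and 0.125, each below that of all enriched windows of the same deposited table. Set against that shift, the medians of all member windows, unenriched ones included, became -0.078, -0.12, -0.24 and -0.006. The positive sign in both replicate 2 tables of the authors' deposited set thus did not hold. With that shift taken off each window and the p kept one-sided, calls went from 9 lower and 1 higher to 5 and 1 and from 4 and 5 to 4 and 3 for sgMETTL16-1 replicates 1 and 2, recomputed from the authors' deposited tables. For sgMETTL16-2 they went from 11 and 1 to 16 and 1 and from 2 and 6 to 3 and 2, recomputed from the authors' deposited tables.

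**Figure D3:**
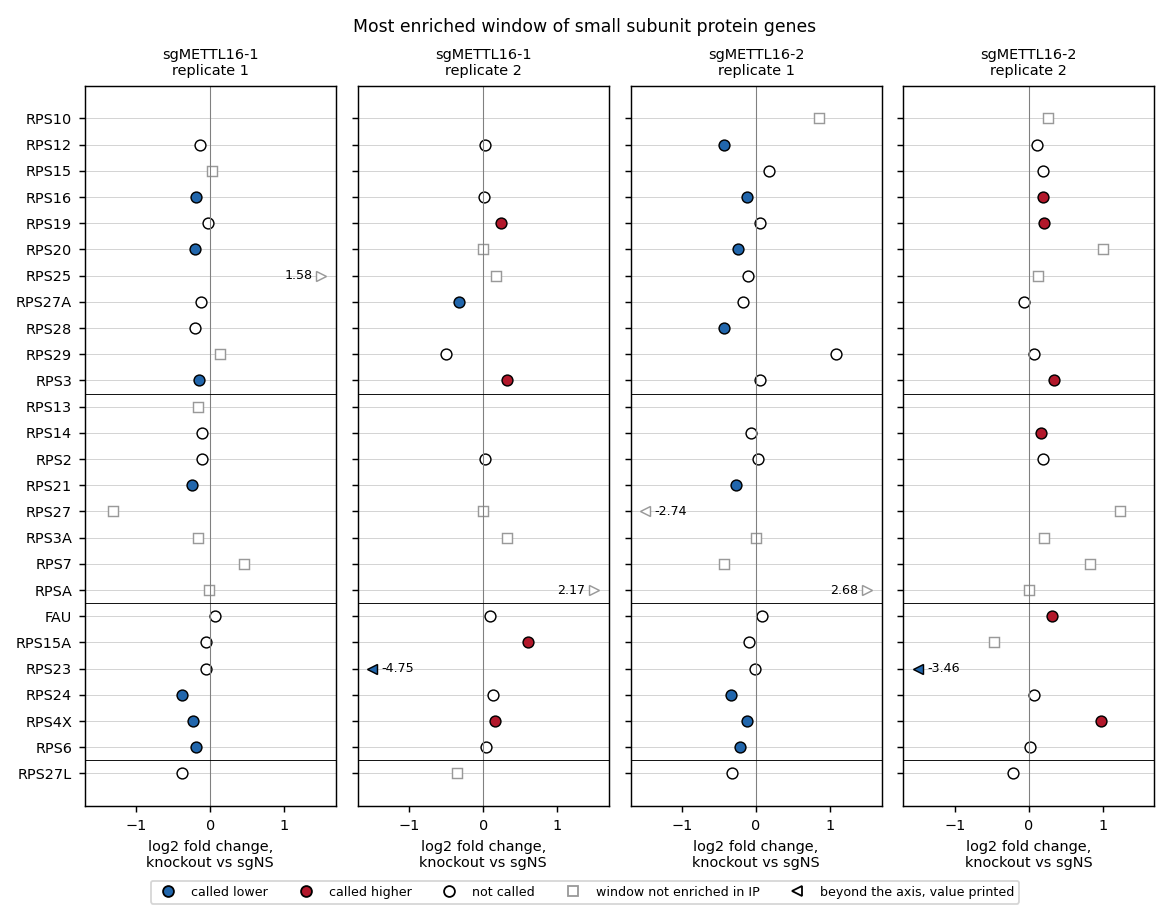
Log2 fold change between knockout and sgNS of the most enriched window of members whose own values are reported, the one with the lowest deposited p of IP over input, in the 4 deposited tables, with members grouped by head, platform and back, body and the paralog RPS27L. Filled points are windows with a deposited FDR under 0.05, squares are windows not enriched, and the replicate 1 columns show 20 and 16 negative values where the replicate 2 columns show 4 and 4.

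Taking 1 window per gene, the most enriched, 23 members were negative and 6 positive for sgMETTL16-1 replicate 1, and 20 and 8 for sgMETTL16-2 replicate 1, in the authors' deposited tables. For replicate 2 the counts were 5 negative and 15 positive for sgMETTL16-1, and 5 and 21 for sgMETTL16-2, in the authors' deposited tables. Tables of the same replicate number may use the same sgNS libraries, which the sources used here do not settle, so their likeness is no independent evidence. Of the 30 members, 20 had a called window in the authors' deposited set, where 10.2% of all genes had one. Called lower in at least 2 of the authors' deposited tables were 9 members, against 1.18% of all genes, higher in at least 2 were 3, against 1.78%, and lower in some and higher in others were 6, against 0.633%.

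Among proteins of the body, RPS23 had the lowest log2 fold changes of any member, in replicate 2. RPS23 is uS12, which lines the decoding centre and checks codon and anticodon pairing. Its window at chr5:82276066-82276185, a single block on the minus strand and 2169 bases from the annotated 5′ end, had a log2 fold change of -0.060 for sgMETTL16-1 replicate 1 and -4.75 for sgMETTL16-1 replicate 2 in the authors' deposited tables. The same window was at -0.015 for sgMETTL16-2 replicate 1, and a window that contains it, chr5:82275917-82276185, was at -3.46 for sgMETTL16-2 replicate 2, in the authors' deposited tables. The FDR was 2.51e-24 and 1.58e-23 in the replicate 2 tables, and 0.655 and 0.659 in the replicate 1 tables of the authors' deposited set. Both replicate 2 values were far below 0 and both replicate 1 values near 0, and the lower calls of the other members ranged down to -0.44, or to -0.99 with RPS2, in the authors' deposited tables. Large falls in replicate 2 were not limited to RPS23. Lower calls of large subunit windows reached -3 for sgMETTL16-1 and -2.81 for sgMETTL16-2 in replicate 2 of the authors' deposited tables. In replicate 1 they reached -1.09 and -0.877.

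The fold enrichment of that window also differed, 1.53 and 1.61 in replicate 1 and 3.85 and 2.86 in replicate 2, in the authors' deposited tables. All other RPS23 windows, towards the 3′ end, were unenriched and uncalled, with values from -2.32 to 2.54 in the authors' deposited tables.

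**Figure D4:**
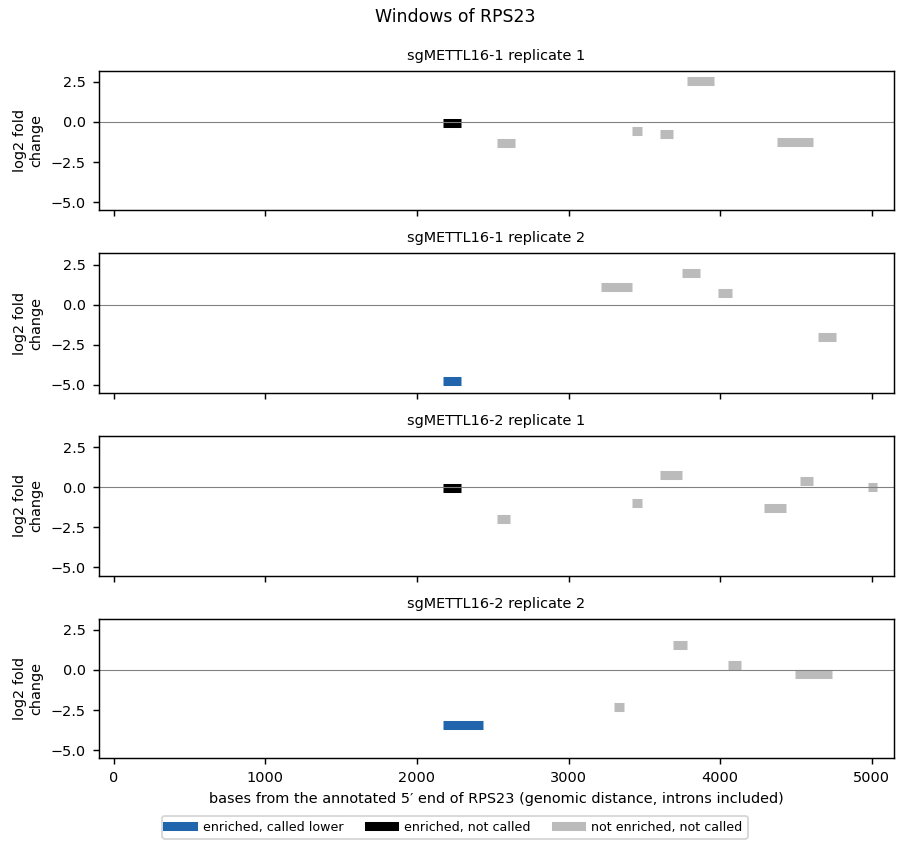
Log2 fold change of every RPS23 window against its distance in bases from the annotated 5′ end, 1 panel per deposited table; each bar spans its window. The bar at 2169 bases lies at -4.75 and -3.46 in the replicate 2 panels and near 0 in the replicate 1 panels.

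RPS6 is eS6, the subunit's substrate of the S6 kinases. Its window at chr9:19376256-19378861 fell by 0.20 on the log2 scale for sgMETTL16-1 replicate 1 (FDR 5.01e-17) in the authors' deposited table. It fell by 0.21 for sgMETTL16-2 replicate 1 (FDR 2.00e-18) in the authors' deposited table, where it is 30 bases longer. Its values of 0.039 and 0.012 in the replicate 2 tables of the authors' deposited set were not called. RPS24, eS24, mutated in some Diamond-Blackfan anaemia, followed the same order, with -0.39 (FDR 1.82e-07) and -0.34 (FDR 1.91e-05) called lower in replicate 1 and 0.13 and 0.065 uncalled in replicate 2 of the authors' deposited tables.

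RPS4X, eS4 encoded on the X chromosome, was lower in both replicate 1 tables at chrX:72272603-72272752, with -0.23 (FDR 5.62e-07) for sgMETTL16-1 and -0.13 (FDR 0.0447) for sgMETTL16-2 in the authors' deposited tables. At the same 3′ stretch it was higher by 0.16 (FDR 0.0126) in the sgMETTL16-1 replicate 2 table of the authors' deposited set. In sgMETTL16-2 replicate 2 another window of 61 bases, chrX:72273801-72273861, was higher by 0.98 (FDR 3.16e-20) in the authors' deposited table.

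FAU, which encodes eS30 fused to a ubiquitin-like protein, was at 0.063, 0.097 and 0.083, uncalled, and at 0.32 (FDR 2.51e-06), called higher, in sgMETTL16-2 replicate 2, in its most enriched windows of the authors' deposited tables. With the enriched median taken off, that FAU call was lost at 0.18 (adjusted one-sided p 0.0933), and the values for sgMETTL16-1 replicate 2 and sgMETTL16-2 replicate 1 became -0.037 and -0.042, recomputed from the authors' deposited tables. RPS15A, uS8, had its called windows at different places: 0.61 higher for sgMETTL16-1 replicate 2 at chr16:18788981-18789066 and -0.26 lower for sgMETTL16-2 replicate 1 at chr16:18784761-18788114, the second unenriched, in the authors' deposited tables.

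Among proteins of the head, RPS3 and RPS19 were higher in replicate 2. RPS3 is uS3 at the mRNA entry channel, and its window at chr11:75404207-75421737 was higher by 0.33 (FDR 2.51e-15) for sgMETTL16-1 and 0.34 (FDR 1.00e-16) for sgMETTL16-2 in the authors' deposited tables of replicate 2. In replicate 1 RPS3 was at -0.16 (FDR 0.000977, lower) for sgMETTL16-1 and 0.057 (uncalled) for sgMETTL16-2 in the authors' deposited tables. RPS19, eS19, the gene most often mutated in Diamond-Blackfan anaemia, was at -0.024 and 0.048 in replicate 1, uncalled, of the authors' deposited tables. Its replicate 2 values of 0.24 (FDR 5.01e-14) and 0.21 (FDR 2.95e-10) were both called higher in the authors' deposited tables. With the median of all enriched windows of a table taken off, the RPS19 call was lost for sgMETTL16-2 (adjusted one-sided p 0.368) and stood for sgMETTL16-1 (0.0277), where it was lost with a two-sided p as well (0.0553), in values recomputed from the authors' deposited tables. The same shift left both higher calls of RPS3 (0.000113 and 2.62e-05) and ended its lower call in sgMETTL16-1 replicate 1 (0.0717), as adjusted one-sided p recomputed from the authors' deposited tables.

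RPS16 was lower in replicate 1, at -0.20 (FDR 8.71e-05) and -0.12 (FDR 0.0479), near 0 at 0.012 for sgMETTL16-1 replicate 2, and higher at 0.19 (FDR 0.0347) for sgMETTL16-2 replicate 2, in the authors' deposited tables. RPS20, uS10, was lower in both replicate 1 tables, at -0.20 (FDR 0.00646) and -0.24 (FDR 0.000372), and its replicate 2 windows, elsewhere in the gene, were unenriched, in the authors' deposited tables. RPS12, eS12, at -0.43 and RPS28 at -0.44 were called lower for sgMETTL16-2 replicate 1, and RPS27A, made as a fusion with ubiquitin, at -0.33 for sgMETTL16-1 replicate 2, each in 1 of the authors' deposited tables. RPS10 had the largest positive call, 2.40 (FDR 0.0102) for sgMETTL16-2 replicate 1, in a window not enriched in the authors' deposited table.

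Among proteins of the platform and back, RPS2 held a second fall of replicate 2. RPS2 is uS5, near the mRNA entry. Its window at chr16:1962610-1962807 was listed in replicate 2 alone, at -0.93 (FDR 7.76e-05) for sgMETTL16-1 and -0.99 (FDR 1.17e-05) for sgMETTL16-2, in the authors' deposited tables. The next RPS2 window downstream, at chr16:1962149-1962522, was uncalled throughout, at -0.11, 0.022 and 0.021 and, in a shorter form, 0.19, in the authors' deposited tables. RPS21, eS21, was lower at -0.25 (FDR 0.0148) and -0.27 (FDR 0.00661) in replicate 1, and had no window in replicate 2, in the authors' deposited tables. RPS14, uS11, encoded in the 5q region lost in the 5q- syndrome, was called once, higher at 0.16 (FDR 0.0155) for sgMETTL16-2 replicate 2 in the authors' deposited table. The most enriched window of RPS27L, which differed in length between tables, was at -0.38, -0.36, -0.32 and -0.22, uncalled, with FDRs from 0.291 to 0.658. It did not pass the enrichment threshold for sgMETTL16-1 replicate 2 (FDR of IP over input 0.0759). The other RPS27L windows, unenriched and uncalled, ran from -2 to 2 in the authors' deposited tables. RPSA windows were unenriched and uncalled in the authors' deposited tables. With the enriched median taken off, the calls of RPS20 (adjusted one-sided p 0.102) and RPS21 (0.119) in sgMETTL16-1 replicate 1, RPS4X (0.899) in sgMETTL16-1 replicate 2, and RPS14 (0.874) in sgMETTL16-2 replicate 2 were lost, recomputed from the authors' deposited tables. With no shift, a plain adjustment of the deposited one-sided p over all windows ended the calls of RPS4X (0.0602) and RPS16 (0.0645) in sgMETTL16-2 replicate 1 and of RPS27A (0.0528) in sgMETTL16-1 replicate 2, from the authors' deposited tables.

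Windows of a guide's 2 tables were matched 1 to 1 on gene and strand, with 0.5 of either window's bases in common as the minimum. For sgMETTL16-1, 21 member windows matched, and 0 were called lower in both, where 0.0449% of 20031 matched windows were, and 0 higher in both, where 0.02% were, in the authors' deposited tables. Called in opposite directions were 2, RPS3 and RPS4X, where 0.0998% of all were, in the authors' deposited tables. For sgMETTL16-2, 22 matched, with 0 lower in both against 0.0613% of 21192, 0 higher in both against 0.529%, and 1 opposite, RPS16, against 0.0142%, in the authors' deposited tables. Of the 10 windows of each guide that were enriched in both replicates, 7 were negative in replicate 1 and positive in replicate 2 for sgMETTL16-1, and 3 were for sgMETTL16-2, in the authors' deposited tables. Most windows of sgMETTL16-2 kept their sign, with 3 negative in both and 4 positive in both. For sgMETTL16-1, 1 was negative in both, 1 positive in both and 1 positive, then negative, in the authors' deposited tables. The opposite calls did not stand under every setting: with the enriched median taken off, 0 were left for either guide, and the RPS16 pair was also lost with the deposited p adjusted over all windows, one-sided or two-sided, in values recomputed from the authors' deposited tables. As deposited, no member was called in 1 direction in matched windows of both replicates by either guide, and with the shift and a one-sided p 1 window was called lower in both for sgMETTL16-2, recomputed from the authors' deposited tables.

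**Figure D5:**
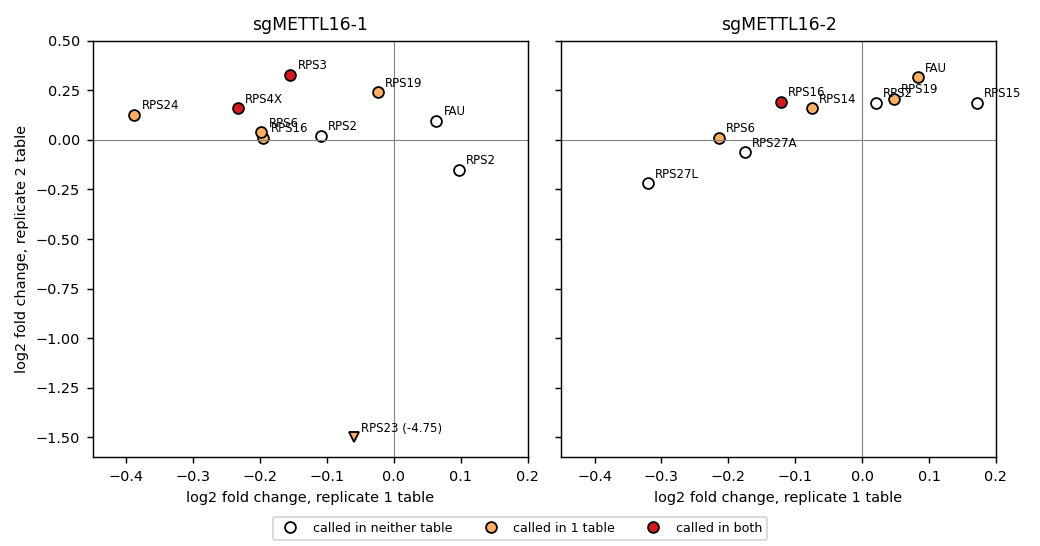
Log2 fold change in the replicate 2 table against the replicate 1 table for member windows enriched in both, 10 drawn for sgMETTL16-1 and 9 for sgMETTL16-2; colour gives the number of tables with a call. For sgMETTL16-1, 7 points lie at a negative replicate 1 and a positive replicate 2 value, and RPS23 lies below the axis at -4.75.

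In the windows that could be matched across every table, 12 in all, means of the log2 fold change were highest for RPS24 (0.48, a window unenriched throughout), RPS3 (0.14), FAU (0.14) and RPS19 (0.12) and lowest for RPS27 (-0.71), RPS15A (-0.31), RPSA (-0.14) and RPS6 (-0.090), from the authors' deposited tables. The RPS27 values ran from -2.74 to 1.24 without a call or enrichment in the authors' deposited tables, so its mean describes a window with little signal. The RPSA window was also unenriched and uncalled throughout. RPS15A was at -0.051 and -0.092 in replicate 1, enriched, and at -0.63 and -0.47 in replicate 2, unenriched, without a call in the authors' deposited tables.

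Genes that act on or through the 40S subunit were read beside the members from a list of 21 names, 20 with a window. Of their 140, 119, 129 and 112 windows, 2 were called lower and 2 higher, 0 and 6, 3 and 7, and 0 and 5, by the authors' deposited tables, and higher calls also outnumbered lower ones over all windows in both replicate 2 tables. Shares called lower were 1.43%, 0%, 2.33% and 0%, against 0.281%, 0.167%, 0.965% and 0.149% of all windows of the authors' deposited tables. Shares called higher were 1.43%, 5.04%, 5.43% and 4.46%, against 0.0743%, 0.583%, 0.875% and 0.586% of all windows of the authors' deposited tables. EIF3A, EIF3B, EIF4G1 and LARP1 were called higher, in any window, in both replicates of sgMETTL16-2 in the authors' deposited tables. The share of all genes called so was not counted, and 0.529% of 21192 matched windows were higher in both for that guide. Calls after the shift by the enriched median were not counted for the genes of this paragraph. EIF3A is the scaffold of the initiation factor that binds the 40S subunit, and LARP1 binds TOP mRNAs. EIF3A was at 0.20 (FDR 0.000631) and 0.28 (FDR 2.00e-15) there, but for sgMETTL16-1 replicate 1 gave lower calls at -0.32 and -0.38 and replicate 2 a higher call at 0.31 in the authors' deposited tables. LARP1 was at 0.34 (FDR 0.0123) and 0.68 (FDR 0.00417), in different windows, for sgMETTL16-2 in the authors' deposited tables. Of 58 factors of small subunit assembly, 56 had a window. Of their 305, 244, 275 and 228 windows, 0.656%, 0.41%, 1.82% and 0% were called lower, against 0.281%, 0.167%, 0.965% and 0.149% of all, and 0%, 2.05%, 0.727% and 2.63% higher, against 0.0743%, 0.583%, 0.875% and 0.586%, in the authors' deposited tables. Of their enriched windows alone, 5.13%, 0%, 0% and 0% were called lower, and 0%, 11.9%, 4.55% and 10.9% higher, in the authors' deposited tables. BYSL, a late 40S assembly factor, was the one assembly gene called in 1 direction in both replicates of a guide, higher at 0.21 (FDR 0.0417) and 0.30 (FDR 0.00138) in the window at its 3′ stretch for sgMETTL16-2, in the authors' deposited tables.

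The tables hold no expression values, so loss of METTL16 RNA and changes in the members' RNA level could not be measured, and in bulk RNA fewer cells of a type and less RNA per cell cannot be told apart. As a check of the cell type, 11 of 11 myeloid markers had a window, against 2 of 5 lymphoid and 1 of 4 erythroid ones, in the authors' deposited tables. Ribosomal protein genes have many processed pseudogene copies, and how reads that fit several copies were counted is not given in the sources used here, so each member's values are uncertain to that extent; 8 pseudogene names of the family had windows of their own in the authors' deposited tables.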

How the data were processed

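Input and m6A IP libraries were prepared with a stranded kit and sequenced on an Illumina HiSeq, per the labels' protocols, and the submitters' processing notes name STAR and the GRCh38 build. Which program called windows is not given in the sources used here. Per the file headers, the authors deposited a fold enrichment (ratio of IP over input), a p-value with log10 p and FDR for it, and the log2 fold change between knockout and sgNS with its log10 p and FDR. Python 3.11.15 with pandas 2.3.3 and numpy 2.4.6 read these values; no model was fitted over libraries, and windows under an FDR of 0.05 were called. A Benjamini-Hochberg adjustment of the deposited p over all windows did not reproduce most deposited FDRs. Within 0.01 on the log10 scale, 23.3%, 26.7%, 26.1% and 25.8% of them were reproduced. That adjustment gives fewer calls, 264, 484, 1223 and 462 against the deposited 282, 535, 1394 and 514. The p of the difference was read as one-sided, which the headers do not state. Among strongly enriched windows its largest value was 0.50 to 0.51 in each deposited table, while some unenriched windows reached 0.83. The script was tested on simulated data. Named genes are those called in 1 direction in 2 or more tables or in opposite directions in matched windows, the 5 most enriched, the 4 highest and 4 lowest of the windows matched in all tables, and RPS27L, RPSA and FAU; others are named as called in 1 table. Members, lists and subunit regions were chosen with earlier results of these data known. Counts cover all members, while the own values of some members are not reported here. Alternatives were the FDR threshold, minimum size, enrichment, overlap, two-sided p and a shift by the enriched median, with a one-sided or two-sided p. For the shift, each window's standard error was derived from its log2 fold change and deposited p under a normal distribution. Windows at 0 or with a p of 0.5 or more gave no such error and stayed uncalled, 29944 to 33757 of them per deposited table.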

Additional observations from a re-analysis of the deposited data

How the results depend on the processing

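No paired analysis was possible because the deposited tables hold the authors' comparisons and no column per library. Counts below are lower and higher calls per table in the order sgMETTL16-1 replicates 1 and 2, then sgMETTL16-2 replicates 1 and 2. With calls limited to log2 fold changes of 0.5 or more in size, lower calls were 0, 2, 0 and 2, and higher calls 0, 1, 1 and 1. Limited to a 2-fold enrichment or more, lower calls were 1, 1, 2 and 1, higher calls 1, 0, 0 and 2, and enriched windows 4, 2, 5 and 4. At an FDR under 0.01, sgMETTL16-1 replicate 2 kept 2 lower and 3 higher calls, and sgMETTL16-2 replicate 1 had 0 higher; with enriched windows alone that table also had 0 higher. A two-sided p left 2 lower calls in sgMETTL16-1 replicate 2. Shifting by the enriched median, chosen after seeing the data, gave 5 lower calls in sgMETTL16-1 replicate 1 with a one-sided or two-sided p, and in replicate 2 of the guides 3 and 2 higher calls with a one-sided p and 2 and 2 with a two-sided p; with a one-sided p 1 window was lower in both tables of sgMETTL16-2, and the shift turned the replicate 2 medians to -0.117 and -0.006. Without RPS23, also chosen after seeing the data, sgMETTL16-2 replicate 2 had 1 lower call. An overlap of 0.2 gave 1 window called lower in both tables of sgMETTL16-1. Leaving out 1 replicate, the calls of the other alone ranged from 4 to 9 lower and 1 to 5 higher for sgMETTL16-1, and from 2 to 11 lower and 1 to 6 higher for sgMETTL16-2. Where no construction shows it, the cause was not tested. Of the 39 called member windows, 27 passed an FDR of 0.01, 31 a two-sided p, 34 a plain one-sided adjustment, 29 the shift with a one-sided p and 28 the shift with a two-sided p, and 0 changed sign. With no counts, what depth limits could not be measured.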
